A study of Homo sapiens with 12 samples.

Results

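The genes of the proteasome were followed through 3 hepatocellular carcinoma (HCC) cell lines treated with an mTOR inhibitor, an SHP2 inhibitor or both. Genes were taken whose symbol starts with PSM, a letter from A to G and a number, and antisense and pseudogene symbols were left out. Of 46 matching names, 2 were antisense (PSMG3-AS1 and PSMD5-AS1), which left 44. PSMC3IP was matched by name alone, since it encodes a partner of meiotic recombinases, and it is described apart. The remaining 43 genes, of 11548 in the deposited table, were 6 PSMA, 8 PSMB, 6 PSMC and 14 PSMD genes and 9 genes of the PSME, PSMF and PSMG families. The rule reads names and no expression value, but it was chosen with earlier results of these data known. PSMA6, PSMA8, PSMB9, PSMB10 and PSMB11 were not analysed here.

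The proteasome degrades proteins tagged with ubiquitin. Its 20S core is a barrel of outer alpha rings (PSMA) and inner beta rings (PSMB), and 3 kinds of beta subunit, PSMB5, PSMB6 and PSMB7, cut peptide bonds. The 19S regulator caps the core: a ring of ATPases (PSMC) unfolds substrates, and non-ATPase subunits (PSMD) bind ubiquitin, remove it and hold the particle together. Other caps (PSME) open the core without the 19S particle, and chaperones (PSMG, PSMD5, PSMD9, PSMD10) help to assemble it. In cells exposed to interferon, PSMB8 can take the place of PSMB5, and the PSME1 and PSME2 products form the PA28 cap.

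Hep3B, MHCC97H and Huh7 are established human lines grown from HCC, and the labels give each as wild type. Each was left untreated, treated with AZD8055 (a kinase inhibitor of both mTOR complexes), with compound #57 (an allosteric SHP2 inhibitor), or with the combination of both. The labels give no concentrations. By the study's description, AZD8055 alone was used at 100 nM in all 3 lines. For the combination, 100 nM of AZD8055 and 5 μM of compound #57 are given for Hep3B and Huh7. No concentrations are given apart for the combination in MHCC97H or for compound #57 alone. Cells were exposed for 48 h, or for 24 h in MHCC97H, so that exposure time and this cell line cannot be told apart. There was 1 library per cell line and treatment, 12 in all. For the treatment comparisons the cell lines served as replicates, so their p-values measure the spread between 3 lines and not between cultures of a line.

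The libraries held 10667343 to 15968317 reads, as recovered from the deposited values. A value is the log2 of the reads per 10000000 library reads plus 1, so a difference of 1 between libraries of a well covered gene is a doubling of its share of reads. The lowest count of any of the 43 genes in a library was 14 reads, for PSMB8 in untreated and in AZD8055-treated Huh7 cells. Among markers of hepatocytes, ALB, AFP, APOA1, SERPINA1 and TTR were abundant in Hep3B and Huh7, whereas MHCC97H held 0 to 3 reads of TTR, 4 to 10 of APOA1 and 13 to 22 of SERPINA1. The log2 values are shares of a library, so a change is relative to the other reads. In these bulk samples, fewer cells expressing a gene and less of its RNA per cell cannot be told apart.

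Proteasome genes took a smaller share of the reads in every treated library than in the untreated library of the same line. In Hep3B the 43 genes held 0.634% of the reads untreated, 0.522% with AZD8055, 0.466% with compound #57 and 0.450% with the combination. In MHCC97H these shares were 0.581%, 0.396%, 0.531% and 0.369%, and in Huh7 they were 0.602%, 0.454%, 0.516% and 0.393%, in the same order. The untreated library was thus highest and the combination lowest in all 3 lines. The order of the single drugs differed: AZD8055 stood below compound #57 in MHCC97H and Huh7 and above it in Hep3B.

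**Figure D1:**
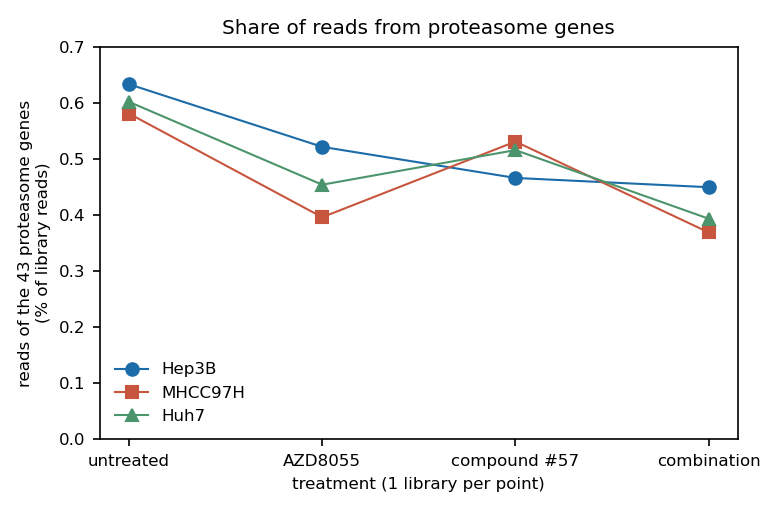
Reads of the 43 proteasome genes as a percentage of all reads of a library (vertical axis, from 0) for the 4 treatments (horizontal axis); each point is 1 library and lines join the libraries of a cell line. Untreated libraries lie between 0.581% and 0.634%, and combination libraries between 0.369% and 0.450%.

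Most of the genes were lower one by one as well. Relative to the untreated library, 36 of 43 genes were lower in all 3 lines with AZD8055 (25.7% of all genes were), 30 with compound #57 (19.7% of all genes) and 35 with the combination (25.6% of all genes). Among the genes of the table with a mean log2 value of at least 9, these background shares were 35.2%, 27.9% and 33.8%. The 3 comparisons share their untreated libraries. The median log2-fold change with AZD8055 was -0.36 in Huh7, -0.27 in Hep3B and -0.54 in MHCC97H. With compound #57 the medians, in the same order of lines, were -0.22, -0.48 and -0.10, and with the combination they were -0.50, -0.53 and -0.62. Compound #57 alone thus gave its smallest median shift in MHCC97H and its largest in Hep3B. Within a line, 28 of 43 genes were lower in all treated libraries than in the untreated library of that line, in each of the 3 lines. The matching share over all genes was not computed. PSMB8 and PSME1 stood on the other side, above their untreated library in every treated library, although for PSME1 in Huh7 with AZD8055 the difference was only 0.01. Of all genes, 28.4%, 30.6% and 33.4% were higher in all 3 lines with AZD8055, compound #57 and the combination.

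**Figure D2:**
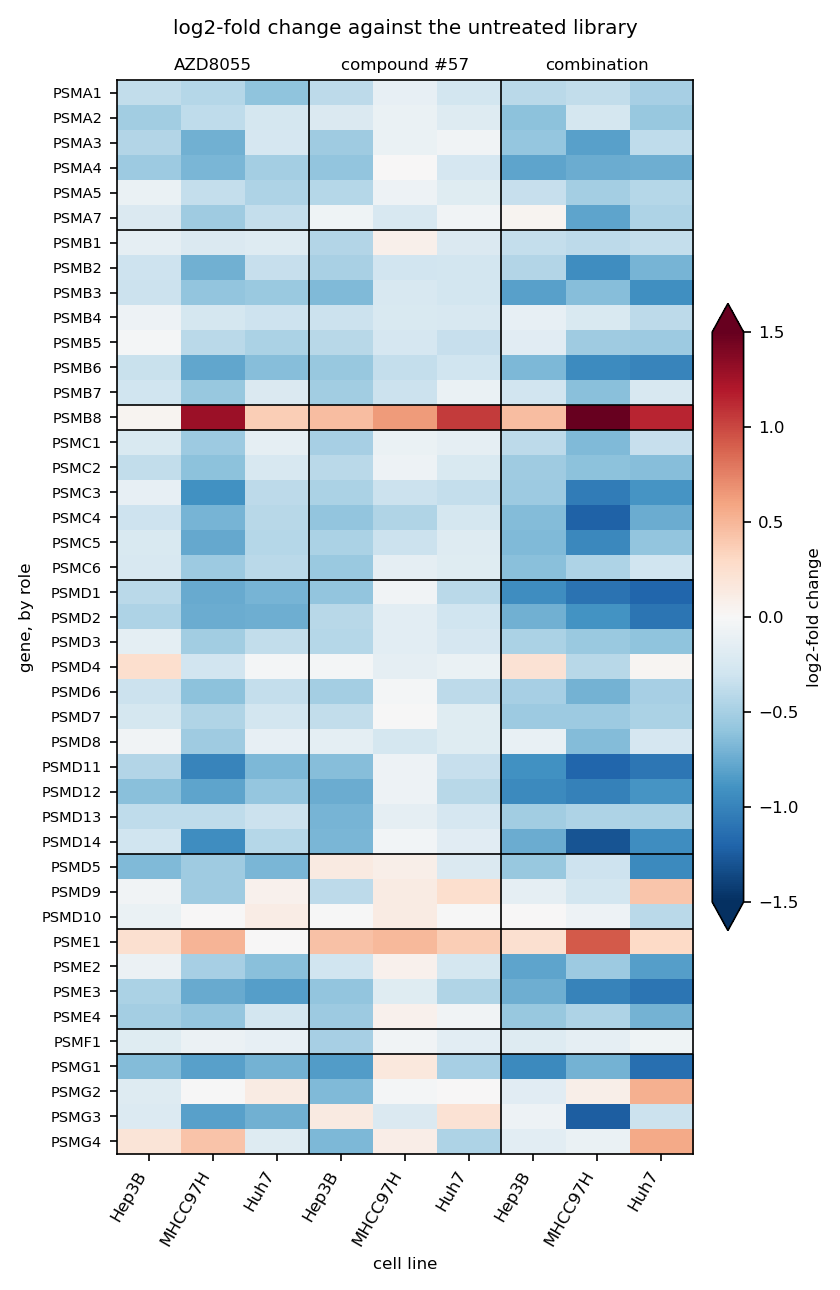
Colour map of the log2-fold change of each of the 43 genes (vertical, grouped by role) against the untreated library of the same cell line, for 3 treatments and 3 lines (horizontal); blue is lower and red is higher, and colours are capped at 1.5 either way. Blue fills most of the map, and the lines for PSMB8 and PSME1 are red throughout, apart from PSME1 in Huh7 with AZD8055 at 0.01.

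Across the 3 lines, limma with a term for cell line was used to test each treatment against untreated cells, with Benjamini-Hochberg adjustment over all 11548 genes, and a gene was called at an adjusted p under 0.05. With the combination 31 of the 43 genes were called lower and 2 higher, against 36.0% of all genes called (15.1% lower and 20.9% higher). The median log2-fold change was -0.54 for the 43 genes and 0.09 for all genes. With AZD8055 4 genes were called, all lower (2.96% of all genes were called, 0.753% lower), with a median of -0.40 against 0.03 for all genes. With compound #57 no gene of the 43 was called (0.00866% of all genes were), and voom on the recovered reads called 0 as well. By limma, 17 of the 43 had an unadjusted p under 0.05, as had 2501 of all 11548 genes. The median with compound #57 was -0.26, against 0.05 for all genes. The combination calls depended on Huh7, over all genes as well as among the 43: without the Huh7 libraries 0 were called, while 20 were called without Hep3B and 24 without MHCC97H, and the median stayed at -0.53, -0.58 and -0.50. Over all genes 4154 were called, and 11, 1797 and 3778 in the same order of lines left out. The 4 AZD8055 calls were lost without any 1 of the lines (0 each time), while over all genes the 342 calls fell to 0 without Huh7, 1 without Hep3B and 109 without MHCC97H.

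**Figure D3:**
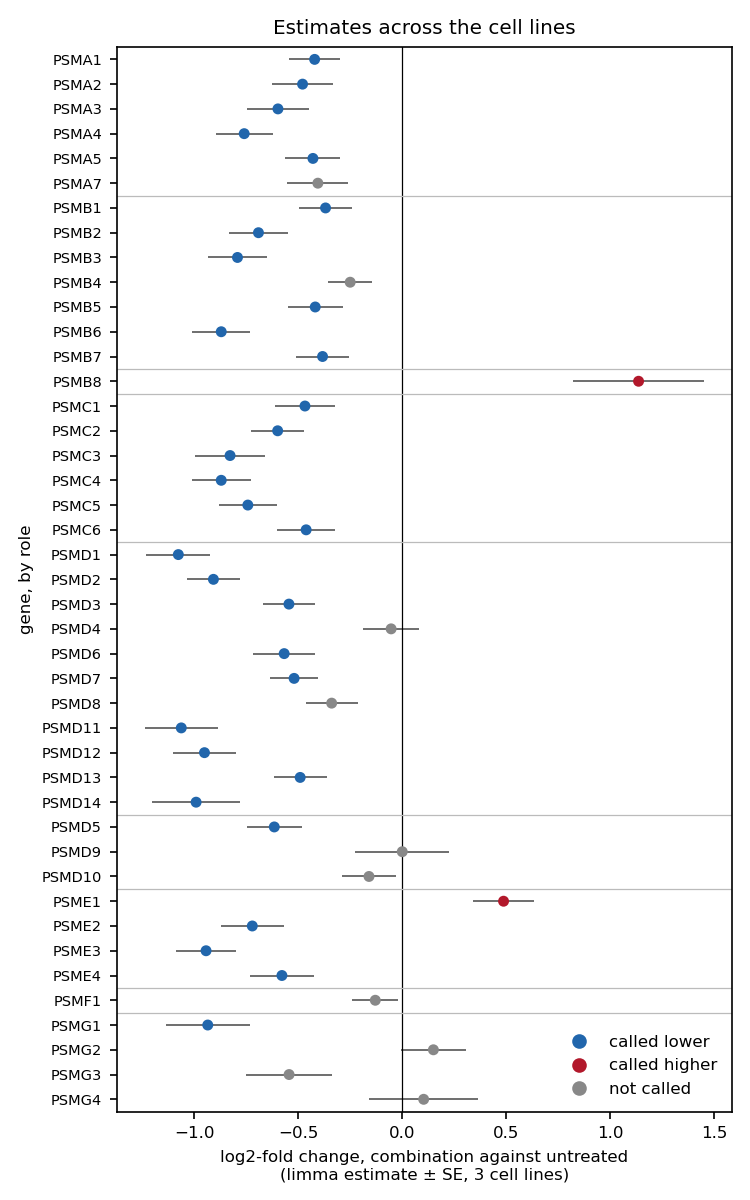
Estimates of the log2-fold change for the combination against untreated cells (horizontal axis, limma estimate with bars of 1 SE over 3 cell lines) for the 43 genes grouped by role (vertical axis); blue points were called lower, red points called higher and grey points not called. Of the points, 31 are blue, 2 red (PSMB8 and PSME1) and 10 grey.

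The alpha ring, which gates the entry to the core, was lower with the combination: 5 of 6 genes were called lower, with a median of -0.45 and a range from -0.76 to -0.40. The sixth, PSMA7, was at -0.40 (SE 0.15, adjusted p = 0.0541). PSMA4 had the largest estimate, -0.76 (SE 0.14, adjusted p = 0.00456). PSMA1 had log2 values, in the order untreated, AZD8055, compound #57 and combination, of 8.27, 7.67, 7.99 and 7.77 (Huh7), 8.06, 7.69, 7.67 and 7.66 (Hep3B) and 8.69, 8.26, 8.57 and 8.32 (MHCC97H). All 9 treated PSMA1 values lay below the untreated value of their line, and the AZD8055 library was about as low as the combination library. None of the 6 genes was called with AZD8055 alone (median -0.43) or with compound #57 alone (median -0.23).

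In the beta ring 6 of 7 constitutive genes were called lower with the combination, with a median of -0.42 (range -0.87 to -0.25). Of the catalytic subunits, PSMB6, the caspase-like one, had values of 10.83, 10.20, 10.54 and 9.84 (Huh7), 10.69, 10.36, 10.12 and 10.01 (Hep3B) and 10.18, 9.40, 9.82 and 9.24 (MHCC97H), in the same order as before. Its combination library was the lowest of its line each time, and the estimate was -0.87 (SE 0.14, adjusted p = 0.00335). The values of PSMB5, the chymotrypsin-like subunit, were 10.67, 10.19, 10.32 and 10.12 (Huh7), 10.71, 10.68, 10.29 and 10.55 (Hep3B) and 9.60, 9.20, 9.35 and 9.07 (MHCC97H). In Hep3B AZD8055 left PSMB5 0.03 below the untreated value and compound #57 gave the lowest library, and the combination estimate was -0.42 (SE 0.13, adjusted p = 0.0345). PSMB7, the trypsin-like subunit, stood at 10.62, 10.40, 10.51 and 10.38 (Huh7), 10.33, 10.03, 9.81 and 10.05 (Hep3B) and 10.03, 9.46, 9.71 and 9.41 (MHCC97H). For PSMB7 the estimate with the combination was -0.38 (SE 0.13, adjusted p = 0.0424), and in Hep3B compound #57 alone gave the lowest library. Of the structural beta genes PSMB2 (-0.69), PSMB3 (-0.79) and PSMB1 (-0.37) were called, and PSMB4, which had the highest level per length of the 43 genes in the median library, was at -0.25 (SE 0.11, adjusted p = 0.0915).

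PSMB8, the interferon-inducible counterpart of PSMB5, went the other way. It lies on chromosome 6 (32840717 to 32844679, minus strand, hg38, 6 exons). Its log2 values were 3.29, 3.66, 4.34 and 4.44 (Huh7), 5.0, 5.04, 5.46 and 5.46 (Hep3B) and 6.18, 7.46, 6.81 and 7.98 (MHCC97H), so that it was lowest untreated and highest with the combination in MHCC97H and Huh7. In Hep3B the AZD8055 library was close to the untreated one (a difference of 0.04), and compound #57 and the combination gave the same value to 2 decimals. The combination estimate across the lines was 1.14 (SE 0.31, adjusted p = 0.0208). AZD8055 alone gave 0.57 (SE 0.31, adjusted p = 0.267) and compound #57 alone gave 0.71 (SE 0.31, adjusted p = 0.225), neither of which was called. The combination call was kept without the Hep3B libraries (1.47, adjusted p = 0.0464 by limma) and lost without those of MHCC97H (0.80, adjusted p = 0.0976) or Huh7 (1.13, adjusted p = 0.125). Levels per length, in reads per kilobase of the canonical transcript, allow both genes to be compared. On that scale PSMB8 was 1.68% of the sum of PSMB8 and PSMB5 in untreated Hep3B, 0.499% in Huh7 and 7.87% in MHCC97H. With the combination these shares were 2.60%, 1.70% and 30.4%. In MHCC97H AZD8055 alone gave 21.7% and compound #57 alone 13.7%. PSMB8 thus remained a minor gene beside PSMB5 in Hep3B and Huh7 in every library, and its counts there were low (14 to 67 reads).

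**Figure D4:**
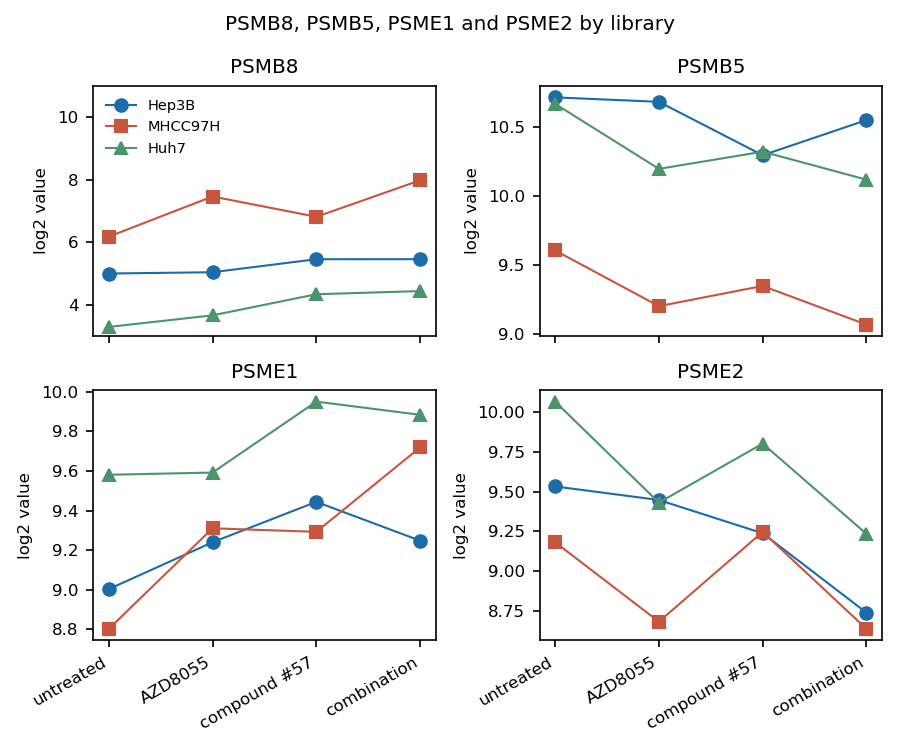
Log2 values (vertical axes, ranges differ between panels) of PSMB8, PSMB5, PSME1 and PSME2 in the 4 treatments (horizontal axis), 1 point per library and 1 line per cell line. PSMB8 and PSME1 lie above their untreated library in treated cells, while PSMB5 and PSME2 lie below it with the combination in all 3 lines.

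The activators were split. PSME1, the alpha subunit of PA28, had values of 9.58, 9.59, 9.95 and 9.88 (Huh7), 9.0, 9.24, 9.44 and 9.25 (Hep3B) and 8.80, 9.31, 9.29 and 9.72 (MHCC97H), with the untreated library lowest in every line. It was called higher with the combination, at 0.49 (SE 0.15, adjusted p = 0.0282), and gave 0.25 (SE 0.15, adjusted p = 0.289) with AZD8055 and 0.43 (SE 0.15, adjusted p = 0.15) with compound #57. The call of PSME1 was lost without any 1 of the lines, at 0.58 without Huh7, 0.61 without Hep3B and 0.27 without MHCC97H (adjusted p by limma 0.124, 0.0713 and 0.15). PSME2, the beta subunit of the same cap, had values of 10.06, 9.43, 9.80 and 9.24 (Huh7), 9.53, 9.45, 9.24 and 8.74 (Hep3B) and 9.18, 8.69, 9.25 and 8.64 (MHCC97H). The combination library of PSME2 was the lowest of its line each time, and it was called lower, at -0.72 (SE 0.15, adjusted p = 0.00784). Both genes lie on chromosome 14, PSME1 at 24136163 to 24138967 on the plus strand and PSME2 at 24143362 to 24147570 on the minus strand (hg38), and they changed in opposite directions. The ratio of PSME1 to PSME2 per length was 0.569 untreated and 1.17 with the combination in Hep3B, 0.631 and 1.74 in MHCC97H, and 0.588 and 1.29 in Huh7. With the single drugs it lay between 0.712 and 1.27, above the untreated ratio in all 3 lines. For PSME2, 6 pseudogenes named after it are annotated, and how reads were shared between such copies was not given in the sources used here.

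PSME3, which encodes the nuclear cap PA28 gamma, had values of 11.05, 10.23, 10.61 and 9.96 (Huh7), 11.72, 11.25, 11.13 and 10.98 (Hep3B) and 11.71, 10.95, 11.53 and 10.71 (MHCC97H). All treated libraries were below the untreated one, the combination was lowest in each line, and PSME3 was called with AZD8055, -0.68 (SE 0.14, adjusted p = 0.0399), and with the combination, -0.94 (SE 0.14, adjusted p = 0.00301). PSME4, encoding the large cap PA200, had values of 11.70, 11.42, 11.64 and 10.99 (Huh7), 11.31, 10.80, 10.77 and 10.75 (Hep3B) and 10.71, 10.13, 10.78 and 10.25 (MHCC97H). It was called lower with the combination, at -0.58 (SE 0.15, adjusted p = 0.0178), while compound #57 left it within 0.07 of the untreated value in MHCC97H and Huh7. PSMF1, an inhibitor of the core, had values of 10.74, 10.63, 10.59 and 10.68 (Huh7), 10.46, 10.28, 9.96 and 10.27 (Hep3B) and 10.20, 10.12, 10.15 and 10.07 (MHCC97H). In Hep3B compound #57 gave the lowest value, and across the lines the estimate was -0.13 (SE 0.11, adjusted p = 0.381) with the combination, a difference that was not called.

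Stretches of promoter from 4 genes are shown because they hold the interferon regulatory factor (IRF) element in the genes that rose, PSMB8 and PSME1, and also in PSME2, which fell, and PSMG4, which was not called. Each is 100 bases long, from 80 before to 20 after the annotated start, read 5′ to 3′ on the strand of the gene from RefSeq (GRCh38.p14), with the match to GAAANNGAAA on either strand in capitals.
PSMB8, chr6:32844028-32844127, minus strand: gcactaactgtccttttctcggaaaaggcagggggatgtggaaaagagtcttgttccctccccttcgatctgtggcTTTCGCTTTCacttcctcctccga
PSME1, chr14:24136114-24136213, plus strand: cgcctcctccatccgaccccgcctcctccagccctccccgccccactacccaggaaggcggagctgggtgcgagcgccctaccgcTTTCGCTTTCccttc
PSME2, chr14:24146591-24146690, minus strand: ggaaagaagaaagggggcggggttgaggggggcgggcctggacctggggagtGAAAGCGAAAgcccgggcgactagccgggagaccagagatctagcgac
PSMG4, chr6:3258867-3258966, plus strand: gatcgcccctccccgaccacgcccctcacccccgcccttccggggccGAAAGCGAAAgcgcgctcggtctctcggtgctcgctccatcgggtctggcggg
In windows of 250 bases before to 50 after the start, available for 37 of the 43 genes, 6 genes (16.2%) held this element: PSMA4, PSMB4, PSMB8, PSME1, PSME2 and PSMG4. It was found in 3.72% of the genes in the table that had a window, and in 3.57% of all 35116 promoters. The share of all promoters counts single promoters, whereas the shares of genes count a match in any promoter of a gene. Of these 6 genes, 2 were called higher with the combination, 2 were called lower (PSMA4 and PSME2) and 2 were not called, so a match did not go with 1 direction. The motifs, 10 in all, were searched on both strands after the values were known, and a match describes letters only.

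All 6 ATPase ring genes were called lower with the combination, with a median of -0.67, from -0.87 for PSMC4 to -0.46 for PSMC6. PSMC4 had values of 10.30, 9.89, 10.04 and 9.56 (Huh7), 10.69, 10.38, 10.10 and 10.04 (Hep3B) and 11.03, 10.34, 10.58 and 9.82 (MHCC97H). Every treated value lay below the untreated value of its line, and the combination was lowest each time, at -0.87 (SE 0.14, adjusted p = 0.00342). PSMC3 (-0.83), PSMC5 (-0.74), PSMC2 (-0.60) and PSMC1 (-0.47) made up the rest of the ring. The single drugs gave medians of -0.44 (AZD8055) and -0.31 (compound #57) with no call. PSMC1 has 13 pseudogenes named after it, the most of the 43 genes.

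Among the 11 other 19S subunits, 9 were called lower with the combination, with a median of -0.57. The lowest estimates of the 43 genes were here. PSMD1, a scaffold of the base, had values of 11.58, 10.89, 11.18 and 10.39 (Huh7), 11.54, 11.13, 10.95 and 10.61 (Hep3B) and 11.26, 10.51, 11.21 and 10.16 (MHCC97H). Untreated was highest and the combination lowest in every line, with an estimate of -1.08 (SE 0.15, adjusted p = 0.00273). PSMD2, the other scaffold, had values of 12.26, 11.53, 11.96 and 11.16 (Huh7), 12.63, 12.17, 12.21 and 11.91 (Hep3B) and 11.80, 11.05, 11.64 and 10.90 (MHCC97H). The combination estimate for PSMD2 was -0.91 (SE 0.13, adjusted p = 0.00271), and it was also called with AZD8055 alone, at -0.64 (SE 0.13, adjusted p = 0.039).

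The lid subunits PSMD11 and PSMD12 were lowest with the combination in all 3 lines. PSMD11 was at 11.21, 10.54, 10.86 and 10.13 (Huh7), 11.65, 11.22, 11.02 and 10.74 (Hep3B) and 11.38, 10.39, 11.31 and 10.19 (MHCC97H), and PSMD12 at 9.91, 9.33, 9.50 and 9.03 (Huh7), 10.36, 9.73, 9.61 and 9.41 (Hep3B) and 10.42, 9.63, 10.34 and 9.41 (MHCC97H). With the combination the estimates were -1.06 (SE 0.18, adjusted p = 0.00365) and -0.95 (SE 0.15, adjusted p = 0.00335), and PSMD12 was also called with AZD8055 at -0.67 (SE 0.15, adjusted p = 0.0484), whereas PSMD11 was not (-0.70 (SE 0.18, adjusted p = 0.0562)). PSMD14, the deubiquitinase that removes ubiquitin chains at the entry, had values of 10.69, 10.27, 10.52 and 9.77 (Huh7), 10.53, 10.23, 9.84 and 9.78 (Hep3B) and 10.28, 9.36, 10.24 and 8.99 (MHCC97H). Its combination library was lowest in each line, with -0.99 (SE 0.21, adjusted p = 0.0081), and compound #57 alone moved it by -0.04 in MHCC97H and by -0.69 in Hep3B. PSMD3, PSMD6, PSMD7 and PSMD13 were called between -0.57 and -0.49. The exceptions were PSMD8, at -0.34 (SE 0.13, adjusted p = 0.0594), and PSMD4, a ubiquitin receptor, at -0.05 (SE 0.14, adjusted p = 0.78). With the combination PSMD4 differed from untreated by 0.03 in Huh7, 0.22 in Hep3B and -0.41 in MHCC97H.

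Of the chaperones of the 19S base, PSMD5 was called lower and PSMD9 and PSMD10 were not called. PSMD5 had values of 10.42, 9.74, 10.20 and 9.46 (Huh7), 9.48, 8.82, 9.62 and 8.91 (Hep3B) and 9.95, 9.42, 10.04 and 9.63 (MHCC97H). Its AZD8055 and combination libraries were low, while compound #57 left it near the untreated level, at 0.00 (SE 0.13). PSMD5 was called with AZD8055, -0.63 (SE 0.13, adjusted p = 0.0417), and with the combination, -0.61 (SE 0.13, adjusted p = 0.00852). PSMD10 (gankyrin, named in liver cancer as an oncoprotein) had values of 8.32, 8.43, 8.32 and 7.92 (Huh7), 8.08, 7.98, 8.08 and 8.09 (Hep3B) and 9.54, 9.55, 9.67 and 9.46 (MHCC97H) and gave -0.16 (SE 0.13, adjusted p = 0.361) with the combination. PSMD9 gave 0.00 (SE 0.23, adjusted p = 0.998), and had the lowest level per length in the median library. Of the antisense genes that carry these names, PSMD5-AS1 was called higher with the combination, at 0.54 (SE 0.15, adjusted p = 0.0188). The kit kept strand, but whether strand was used in counting was not given in the sources used here.

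The core chaperones differed from each other. PSMG1 had values of 8.57, 7.85, 8.06 and 7.44 (Huh7), 8.77, 8.12, 7.94 and 7.81 (Hep3B) and 9.02, 8.21, 9.18 and 8.31 (MHCC97H), low in all AZD8055 and combination libraries, and was called lower with the combination, at -0.93 (SE 0.20, adjusted p = 0.00848). PSMG2, its partner, had values of 9.51, 9.63, 9.51 and 10.04 (Huh7), 8.37, 8.18, 7.71 and 8.20 (Hep3B) and 8.92, 8.91, 8.88 and 9.01 (MHCC97H). In Huh7 the combination gave the highest PSMG2 value and in Hep3B compound #57 the lowest, with an estimate of 0.15 (SE 0.15, adjusted p = 0.464). Their co-chaperone PSMG3 had values of 7.65, 6.93, 7.86 and 7.32 (Huh7), 8.79, 8.58, 8.93 and 8.72 (Hep3B) and 8.96, 8.15, 8.74 and 7.73 (MHCC97H), with combination differences of -0.32, -0.07 and -1.23 in the same order of lines, and -0.54 (SE 0.21, adjusted p = 0.0657) across them. It overlaps PSMG3-AS1, which was called higher at 1.63 (SE 0.30, adjusted p = 0.00495). PSMG4 had values of 5.43, 5.23, 4.97 and 6.0 (Huh7), 6.93, 7.13, 6.26 and 6.78 (Hep3B) and 7.31, 7.73, 7.41 and 7.20 (MHCC97H), without a common direction, and 0.10 (SE 0.26, adjusted p = 0.775).

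A promoter stretch of 100 bases is shown for each of PSMD12, a 19S subunit, and PSMD5, a chaperone of the 19S base, both called lower with AZD8055 and with the combination. They hold the antioxidant response element TGACNNNGC (capitals, either strand), to which NFE2L1, a transcription factor of proteasome genes, can bind. Both were taken from RefSeq (GRCh38.p14).
PSMD12, chr17:67366688-67366787, minus strand: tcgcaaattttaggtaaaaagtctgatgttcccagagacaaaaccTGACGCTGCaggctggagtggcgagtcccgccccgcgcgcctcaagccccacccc
PSMD5, chr9:120843013-120843112, minus strand: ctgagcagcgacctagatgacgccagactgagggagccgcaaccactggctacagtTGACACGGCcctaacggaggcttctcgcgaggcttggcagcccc
The element was present in 14 of the 37 genes with a promoter window (37.8%), against 19.7% of the genes in the table that had one. Counted by single promoter and not by gene, it was in 13.3% of all promoters. Of the genes that held the element, PSME1 was called higher with the combination, and PSMD9 and PSMG2 were not called. The others, among them PSMD1, PSMC4, PSMC5 and PSMA4, were called lower, as were 31 of all 43 genes. PSMD2 and PSME3, the other genes called with AZD8055, did not hold it. The NFE2L1 gene itself had values of 10.90, 10.91, 10.87 and 10.78 (Huh7), 11.60, 11.96, 11.96 and 12.13 (Hep3B) and 11.40, 11.37, 11.45 and 11.35 (MHCC97H), higher in the treated Hep3B libraries and close to untreated in the other lines, and gave 0.12 (SE 0.13, adjusted p = 0.478) with the combination.

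Adding compound #57 to AZD8055 was examined by comparing the combination with AZD8055 alone. No gene of the 43 was called by limma or by voom (0.0% of all genes were). By limma, 2 of the 43 had an unadjusted p under 0.05, as had 1673 of all 11548 genes. The smallest adjusted p was that of PSMD1, -0.46 (SE 0.15, adjusted p = 0.25). The median was -0.13, and 23 of 43 genes were lower in all 3 lines (16.3% of all genes were). PSMD14 (-0.44) and PSMC4 (-0.40) followed PSMD1 at the low end, and PSMB8 (0.57), PSME1 (0.24) and PSMG2 (0.17) were at the high end.

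For the converse, adding AZD8055 to compound #57, 3 genes were called lower (4.18% of all genes were called, 1.57% lower) and the median was -0.31. They were PSMD1 at -0.73 (SE 0.15, adjusted p = 0.0383), PSMD5 at -0.62 (SE 0.13, adjusted p = 0.0391) and PSMD2 at -0.62 (SE 0.13, adjusted p = 0.0379). All 3 were lower in each line. Leaving out any 1 line left 0 calls among the 43, and over all genes the 483 calls fell to 0 without Huh7, 1 without Hep3B and 331 without MHCC97H. The shift differed between lines, its median being -0.37 in Huh7, -0.05 in Hep3B and -0.53 in MHCC97H, a difference that was not tested. PSMD11 (-0.71) and PSMD14 (-0.69) were also low, and PSMG4 (0.45), PSMB8 (0.42) and PSMG2 (0.38) high, none of them called.

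Whether the combination departed from the sum of the effects of both drugs was tested as an interaction on the log2 scale. None of the 43 genes was called by limma or voom (0.0% of all genes were). By limma, 0 had an unadjusted p under 0.05, against 178 of all 11548 genes. The median departure was 0.09, with 34 of 43 estimates above 0 and 9 below, while 52.3% of all genes lay below 0. On this scale an estimate above 0 is a fall smaller than the sum for a gene that fell with both drugs. Estimates ran from -0.20 (SE 0.19) for PSMD10, -0.20 (SE 0.21) for PSME1 and -0.15 (SE 0.21) for PSME2 to 0.31 (SE 0.37) for PSMG4, 0.31 (SE 0.17) for PSMA1 and 0.40 (SE 0.22) for PSMG2. None of them passed the test, so departures of this size were not resolved by 3 lines.

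Between the cell lines the 43 genes showed little shift in their median (0.04 for Hep3B against MHCC97H, 0.10 for Huh7 against MHCC97H and -0.02 for Hep3B against Huh7). Single genes differed, with calls about as frequent as over all genes. In these tests the libraries of a line, each under its own treatment, served as replicates of that line. Their p-values measure the spread left after the treatment term, and not the spread between cultures of a line given the same treatment. Exposure time cannot be told apart from cell line wherever MHCC97H is compared. Between Hep3B and MHCC97H 28 genes were called, 15 higher and 13 lower in Hep3B (67.8% of all genes were called, 38.6% higher and 29.2% lower). Between Huh7 and MHCC97H 29 were called, 15 higher and 14 lower in Huh7 (70.2% of all genes, 36.4% higher and 33.8% lower), and between Hep3B and Huh7 24, 13 higher and 11 lower in Hep3B (55.1% of all genes, 30.7% higher and 24.5% lower). PSMB8 differed most: it was -1.87 in Hep3B and -3.18 in Huh7 relative to MHCC97H (adjusted p = 0.000166 and 3.29e-06). PSMB5, for which PSMB8 can substitute, was higher in both lines than in MHCC97H, by 1.26 and 1.02 (adjusted p = 6.17e-06 and 2.34e-05). PSMB1 was likewise higher, by 1.12 and 0.83, and PSMD10 lower, by -1.49 and -1.31. Between Hep3B and Huh7 the largest differences were those of PSMG2 (-1.56), PSMG4 (1.37), PSMG3 (1.32) and PSMB8 (1.31), all called.

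Genes that work with the proteasome were less uniform. Of 9 proteins that bind or help to build it, 3 were called lower with the combination and none higher (15.1% and 20.9% of all genes were). These were ADRM1, a ubiquitin receptor of the 19S particle, at -0.62 (SE 0.15, adjusted p = 0.0141), POMP, a chaperone that matures the core, at -0.75 (SE 0.14, adjusted p = 0.00474), and UCHL5, a deubiquitinase held by ADRM1, at -1.06 (SE 0.20, adjusted p = 0.00496). ADRM1 had values of 10.71, 10.26, 10.42 and 10.21 (Huh7), 10.65, 10.47, 10.27 and 10.35 (Hep3B) and 10.59, 9.87, 10.20 and 9.52 (MHCC97H), and POMP of 9.78, 9.32, 9.55 and 9.13 (Huh7), 9.72, 9.12, 9.12 and 9.01 (Hep3B) and 8.80, 8.19, 8.71 and 7.90 (MHCC97H). Both were highest untreated and lowest with the combination in MHCC97H and Huh7, and in Hep3B ADRM1 was lowest with compound #57. Of 6 genes of the NFE2L1 pathway VCP (-0.57) was called lower and MAFK (1.21) higher.

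Genes of antigen processing, a list that includes the transcription factor IRF1 described below, were mostly higher. Of 7 genes, 4 with IRF1 among them were called higher with the combination and 1 lower. Of all genes, 20.9% were called higher and 15.1% lower. TAP1, a subunit of the peptide transporter encoded near PSMB8, had values of 3.82, 5.65, 5.55 and 6.49 (Huh7), 5.89, 6.68, 7.56 and 8.32 (Hep3B) and 7.62, 8.36, 8.01 and 8.78 (MHCC97H), with every treated library above the untreated one, and 2.09 (SE 0.32, adjusted p = 0.00301). TAP2, its partner, was called lower at -1.19 (SE 0.29, adjusted p = 0.0132). TAPBP, which loads peptides, was at 1.06 (SE 0.17, adjusted p = 0.00335), and ERAP1, which trims them, at 0.64 (SE 0.12, adjusted p = 0.00501).

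IRF1, a transcription factor of the interferon response, had values of 6.43, 7.09, 7.12 and 7.89 (Huh7), 6.10, 6.91, 7.26 and 7.64 (Hep3B) and 7.59, 8.47, 8.12 and 9.0 (MHCC97H). It was higher in every treated library and was called with the combination, 1.47 (SE 0.16, adjusted p = 0.00169), with AZD8055, 0.79 (SE 0.16, adjusted p = 0.0394), and for the combination against compound #57, 0.68 (SE 0.16, adjusted p = 0.0464). SEM1, ECPAS and NLRC5 were not analysed here.

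PSMC3IP, the gene matched by name alone, had values of 6.98, 7.06, 6.88 and 6.90 (Huh7), 7.65, 7.94, 7.82 and 7.80 (Hep3B) and 7.59, 6.44, 7.70 and 6.33 (MHCC97H). It was low in the AZD8055 and combination libraries of MHCC97H only, and the estimate with the combination was -0.40 (SE 0.31, adjusted p = 0.342).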

How the data were processed

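RNA sequencing libraries of 3 cell lines under 4 treatments were analysed (12 libraries, 1 per condition). Per the labels and the study's methods, polyA+ stranded libraries were made with a TruSeq kit and aligned to hg38. The aligner, the counting and its use of strand were not given in the sources used here. The authors deposited 1 table of log2 values for 11548 genes. Its values fitted log2(reads × 10000000/library reads + 1) with 0.001 added, and 100.0% of them gave whole reads (tolerance 0.01), so depth was recovered. No floor was set for 0 reads, and intervals cover counting error only.

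Each gene was tested with limma 3.58.1 (R 4.3.3, lmFit, eBayes with trend) on the deposited log2 values of the 12 libraries, fitting treatment and cell line, and p-values were adjusted over all genes. No gene was filtered. Same-numbered libraries shared a cell line, which made the pairs. The fit was run on simulated libraries with changes of known size, the same in every line. That checks the fitting and not the calls made here. Python 3.11.15 was used for the other steps. Gene positions and lengths came from GENCODE 44 and promoters from RefSeq. Full values were given for catalytic subunits, activators, PSMF1, the members of smallest p (at most 5 per comparison) and the 3 highest and 3 lowest estimates per comparison. The members and lists were chosen with earlier results of these data known. Of the table's names, 18 had been turned into dates and 4 stood on 2 lines each. Some genes of the related pathways are not reported here.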

Additional observations from a re-analysis of the deposited data

Results flagged for a closer look

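In 18 cases a gene lay above the untreated or single-drug library in 1 cell line and below it in another, with counting intervals on opposite sides of 0. These differences between lines were not tested, since each rests on 1 library per condition. Each is given as the log2-fold change in the higher line minus that in the lower line.

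With AZD8055 against untreated cells, PSMC3IP differed by 1.44 (0.29 in Hep3B and -1.15 in MHCC97H) and PSMD4 by 0.54 (0.26 in Hep3B and -0.29 in MHCC97H). With compound #57 against untreated cells, PSMD5 differed by 0.35 (0.14 in Hep3B and -0.22 in Huh7) and PSMG1 by 0.99 (0.16 in MHCC97H and -0.83 in Hep3B). With the combination against untreated cells, PSMD4 differed by 0.63 (0.22 in Hep3B and -0.41 in MHCC97H).

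For the combination against AZD8055, the difference was 0.5 for PSMA7 (higher in Hep3B than in MHCC97H), 0.49 for PSMD5 and 0.56 for PSME4 (both higher in MHCC97H than in Huh7), and 0.82 for PSMG3 and 1.3 for PSMG4 (both higher in Huh7 than in MHCC97H).

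For the combination against compound #57, Hep3B lay above MHCC97H by 0.64 for PSMA7, 0.54 for PSMB1, 0.54 for PSMB5, 0.54 for PSMB7, 0.51 for PSMD13 and 0.52 for PSMD4, and above Huh7 by 0.34 for PSMB4. PSME1 differed by 0.62, with 0.43 in MHCC97H and -0.2 in Hep3B.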

How the results depend on the processing

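Of 77 alternative counts of called members over 9 comparisons, 54 stayed within 1.5 times the reported count without the larger side changing. In 8 more the count stayed within 1.5 times but the larger side changed, 14 were smaller and 1 was larger. The 54 include every count for compound #57 against untreated cells, the combination against AZD8055 and the sum of both drugs. In these comparisons 0 members were called throughout, so they show no stability of a call. Adding 10 to the linear values, keeping the 75% of genes with the highest mean and voom on whole reads kept every count of the 9 comparisons within 1.5 times. The 75% setting held 40 of the 43 members and called 6 with AZD8055. Without the replicate block (no cell line term) 0 members were called with AZD8055 (4 reported), 0 with the combination against untreated cells (33 reported) and 0 for the combination against compound #57 (3 reported). The pairing comes from the cell lines. With only the libraries compared the counts were 0, 21 and 0. Leaving out 1 cell line gave 0 to 0, 0 to 24 and 0 to 0. These fits hold fewer libraries. With each library centred on its median, AZD8055 called 9. For Hep3B against MHCC97H that scaling took the median of all genes from 0.13 to 0.06 and called 27 members, 13 higher and 14 lower, so the larger side changed. Leaving out the libraries of 1 treatment gave 19 to 27 calls for Hep3B against MHCC97H, 27 to 31 for Huh7 against MHCC97H and 18 to 24 for Hep3B against Huh7, and the larger side changed in 7 of these 12 fits. The cause of these changes was not tested. For the sum of both drugs all libraries enter, so no smaller set was fitted.

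Of 744 alternative values of single genes, 530 stayed on their side of the threshold, 214 lost the call and 0 changed sign. All 30 alternative counts of members lower within a line stayed within 1.5 times. The 14 to 67 reads of PSMB8 in Huh7 and Hep3B limit its precision.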
